A study of Rattus norvegicus with 241 samples.

Results

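The genes described here are 6 genes listed as regulators of mature luminal identity, FOXA1, GATA3, CITED1, XBP1, TBX3 and GREB1, taken by symbol, ignoring case, from every bulk and single-cell table of rat mammary cells. They are 6 of 21707 gene symbols in the tables, 5 of 16820 in the bulk tables, where GREB1 has no entry, and 6 of 18566 in the single-cell tables. The name is that of the list, and GREB1 went against it here, since it was lower in luminal than in basal sorts of single cells. Mature luminal cells are the hormone-sensing cells that line the mammary ducts. They carry the estrogen and progesterone receptors and signal to neighboring cells, while luminal progenitors give rise to milk-producing alveolar cells and basal cells contract to eject milk. FOXA1 is a pioneer factor that opens chromatin for the estrogen receptor, and GATA3 is a zinc finger factor needed for luminal differentiation that is also used by T cells. CITED1 is a transcriptional co-regulator of the estrogen receptor, TBX3 is a T-box repressor used in mammary development, XBP1 is a basic leucine zipper factor of the unfolded protein response and the secretory pathway, and GREB1 is an estrogen-induced cofactor of the estrogen receptor.

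Female ACI and Sprague-Dawley (SD) rats were given TGFBRi (LY2157299, a drug that blocks the kinase of the type I TGFβ receptor, 75 mg/kg by mouth 2 times a day) or vehicle for 10 days. Young virgin ACI rats, dosed from about 35 days of age, were sampled 0, 7 or 14 days after the last dose (3 rats for each arm and day), and young virgin SD rats, dosed from about 24 days of age, at day 0 (4 for each arm). Adult ACI rats of 18 to 24 weeks were virgin or parous (4 for each arm and parity, day 0). In the N-nitroso-N-methylurea (NMU) experiment, virgin SD rats dosed from 21 days of age received 50 mg/kg of this carcinogen. Glands were collected 87 days later from 3 vehicle rats, all tumor-bearing, and from 3 tumor-free and 3 tumor-bearing TGFBRi rats. EPCAM+ tumor cells came from 3 tumors of each arm. In the estradiol (E2) experiment, virgin ACI rats, 38 days old at the first dose and dosed for 21 days, received an implant of 37 mg E2, or an empty one, at 60 days. By the study's methods glands were taken months later, when vehicle rats with E2 had palpable tumors, or earlier from rats in poor health. Its luminal samples came from 4 vehicle rats without E2 and 3 TGFBRi rats without E2, all tumor-free, from 4 vehicle rats with E2, all tumor-bearing, and from 4 tumor-free and 2 tumor-bearing TGFBRi rats with E2. One of the tumor-free TGFBRi rats with E2 gave 4 samples, which were averaged. Single cells came from luminal and basal sorts of young virgin ACI rats (3 of each arm) and young virgin SD rats (3 vehicle and 6 TGFBRi rats), all at day 0. Others came from whole glands of virgin SD rats (3 vehicle and 6 TGFBRi rats, day 0), which by the study's account repeated the experiment on young SD rats.

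Bulk basal (CD24+CD29high) and luminal (CD24+CD29low) cells were sorted from CD31-CD45- cells, and a luminal sort holds both luminal progenitors and mature luminal cells. Bulk values are normalized counts, that is, reads divided by a size factor, and each experiment was normalized on its own, so the levels of normalized counts are compared only within an experiment. In adults the basal and luminal tables were also normalized separately, and both were put on a common scale where these cell types are compared. The 202 bulk samples, leukocytes included, held 4194912 to 52314784 reads (median 20100223). Single-cell values are CPM, unique molecular identifiers (UMIs) of a gene per 1000000 UMIs, summed over the cells of a rat. Libraries held 563 to 16424 cells with a median of 2820 to 15941 UMIs per cell, and 70, 432 and 12494 cells (0.418%, 1.09% and 12.1%) of the sorted ACI, sorted SD and whole-gland experiments had a barcode that another library of the same experiment also held. A gene was called at an adjusted p of at most 0.05 in bulk (limma on log2 of value + 1, all genes) or 0.1 in single cells (edgeR quasi-likelihood on sums per rat), Benjamini-Hochberg over all genes tested. Differences are log2 fold changes ± SE, and p-values cover the spread between these rats.

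Promoter sequences of XBP1, GATA3 and CITED1 are shown because they are the members that the table of promoters used here held, and because estrogen receptor and stress-response elements are the motifs usually named for this group. The table is from RefSeq (build GRCr8) and matched 3 of the 6 members, and the 250 bases before each start site are given 5′ to 3′ on the gene's strand. XBP1 lies at chr14:84604373-84604622 on the + strand, GATA3 at chr17:73553298-73553547 on the + strand and CITED1 at chrX:71395024-71395273 on the - strand. Capitals mark an endoplasmic reticulum stress element (ERSE, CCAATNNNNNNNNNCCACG) in XBP1 and the core of the estrogen response element (GGTCA, or TGACC on the other strand) in GATA3 and CITED1.
XBP1: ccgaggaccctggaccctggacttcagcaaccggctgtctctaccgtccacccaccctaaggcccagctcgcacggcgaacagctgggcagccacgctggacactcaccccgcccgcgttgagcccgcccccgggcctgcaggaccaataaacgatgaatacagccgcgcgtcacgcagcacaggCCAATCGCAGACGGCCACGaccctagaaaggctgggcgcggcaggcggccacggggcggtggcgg
GATA3: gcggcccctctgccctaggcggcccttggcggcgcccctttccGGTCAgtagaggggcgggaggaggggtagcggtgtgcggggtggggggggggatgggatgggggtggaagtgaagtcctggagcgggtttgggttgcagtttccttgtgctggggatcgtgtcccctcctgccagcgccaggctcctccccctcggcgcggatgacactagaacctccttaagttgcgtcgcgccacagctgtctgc
CITED1: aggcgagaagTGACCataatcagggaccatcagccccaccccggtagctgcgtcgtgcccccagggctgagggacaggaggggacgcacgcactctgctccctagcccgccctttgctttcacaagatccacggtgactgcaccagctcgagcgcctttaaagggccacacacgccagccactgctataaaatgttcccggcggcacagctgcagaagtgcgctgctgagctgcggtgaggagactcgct
The ERSE of XBP1 spans 65 to 47 bases before the start, and 22 of 33469 promoters of this length (0.0657%) held these letters on either strand. The core GGTCA lies 207 to 203 bases before the GATA3 start and, as TGACC, 240 to 236 bases before the CITED1 start. It is a short motif found in 35.4% of promoters. The full palindrome GGTCANNNTGACC, which contains the core, was in 0.0239% of promoters and in none of these 3 windows. The windows had a GC content of 69.6% (XBP1), 68.4% (GATA3) and 62.4% (CITED1). A match of letters is a description and not evidence of binding.

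The first comparison asked where the members are expressed, by setting luminal against basal cells of the vehicle rats. CITED1, FOXA1 and XBP1 were higher in luminal cells in young ACI rats, and GATA3 and TBX3 were not called. In these rats CITED1 had 5457, 5745 and 7373 normalized counts in luminal and 174, 317 and 348 in basal cells. The groups did not overlap, and the difference was 4.51 ± 0.85 (adjusted p = 0.00019). FOXA1 had 1486, 1756 and 1962 in luminal against 67.7, 77.4 and 90.1 in basal cells, again without overlap, a difference of 4.45 ± 0.87 (adjusted p = 0.00029). XBP1 had 8965, 9035 and 10066 against 1666, 2024 and 2338, a difference of 2.23 ± 0.21 (adjusted p = 2.2e-09). GATA3, in contrast, was abundant in both cell types, with 2960.3, 3388 and 3562 in luminal and 2138, 2329 and 2703 in basal cells. Its difference was 0.47 ± 0.34 (adjusted p = 0.42). It was called when rat was a block (adjusted p = 0.034) and in a fit of these groups alone (adjusted p = 0.024). TBX3 had 1886, 2489 and 2638 in luminal and 2413, 2927 and 3039 in basal cells, a difference of -0.26 ± 0.77 (adjusted p = 0.88). Of 15824 genes tested in this comparison, 20.5% were called, and the median difference over the 5 members was 2.23 beside -0.21 over all genes. The sort separated the cell types by their markers. All 9 basal markers tested were lower in luminal cells, among them the keratin gene KRT14 at -7.72 ± 0.52, and 8 of 11 luminal progenitor genes were higher. Of 18 other mature luminal genes 12 were higher, among them the prolactin receptor gene PRLR at 4.58 ± 0.42, and 2 were lower, UPK1B at -8.87 ± 0.78 and TBX2 at -6.80 ± 0.64.

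The other vehicle groups were compared in the same way. In young SD rats, where 50.1% of genes were called, 3 of 5 members were higher in luminal cells. CITED1 differed by 4.64 ± 0.46 (adjusted p = 4e-07), FOXA1 by 2.59 ± 0.68 (adjusted p = 0.0041) and XBP1 by 1.95 ± 0.25 (adjusted p = 5.7e-06), while GATA3 (0.67 ± 0.49, adjusted p = 0.27) and TBX3 (0.80 ± 0.70, adjusted p = 0.36) were not called. The FOXA1 call was lost without luminal vehicle replicate 2 (over the fits that left out 1 rat, 1.90 to 3.41, adjusted p up to 0.052). In adult virgin ACI rats, with 34.9% of genes called, CITED1 (5.03 ± 0.83, adjusted p = 2.3e-05), FOXA1 (4.54 ± 1.00, adjusted p = 0.00072) and XBP1 (2.23 ± 0.25, adjusted p = 6.3e-08) were higher in luminal cells. Leaving out 1 rat gave 4.33 to 6.22 for CITED1 and 3.90 to 5.54 for FOXA1, with both calls kept. Virgin luminal rat 1 had a CITED1 level of 521 on the scale common to both cell types, against 9176 to 12226.5 in the others. Parous rats, with 42.1% called, had the same 3 genes higher, CITED1 by 4.80 ± 0.83 (adjusted p = 2.6e-05), FOXA1 by 5.61 ± 1.00 (adjusted p = 4.1e-05) and XBP1 by 3.23 ± 0.25 (adjusted p = 3.8e-11). In both adult groups GATA3 was lower in luminal than in basal cells. The difference was -1.02 ± 0.24 (adjusted p = 0.00095) in parous rats. In virgin rats it was -0.66 ± 0.24 (adjusted p = 0.031) and was lost without rat 1, 3 or 4 (-0.78 to -0.46, adjusted p up to 0.24). On the common scale of this fit, GATA3 levels in virgin vehicle rats were 4085, 4597, 4968 and 6022 in luminal and 6099, 7069, 7407 and 11034 in basal cells. The corresponding parous values were 4956, 5428, 5527 and 5669 and 7799.7, 9920.5, 12879.7 and 14294, and the cell types did not overlap in either group. TBX3 was not called in adults (-0.34 ± 0.46, adjusted p = 0.62 in virgin and -0.78 ± 0.46, adjusted p = 0.19 in parous rats).

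In the tumor-bearing vehicle rats of the NMU experiment, with 21.9% of genes called, 2 of 5 members passed the test. CITED1 was higher in luminal cells (2.98 ± 0.76, adjusted p = 0.0092), with 1361, 2555 and 8088 against 361, 388 and 403 normalized counts. TBX3 was lower (-1.41 ± 0.47, adjusted p = 0.033), with 86.3, 122 and 204 against 257, 367 and 430.4. Both calls were lost without rat 2 or rat 3 (CITED1 2.31 to 3.57, adjusted p up to 0.12, TBX3 -1.94 to -1.07, adjusted p up to 0.29). The luminal libraries of rats 1 and 2 had 6952044 and 14808084 reads on genes and size factors of 0.25 and 0.46. The basal libraries of these vehicle rats had size factors of 0.73 to 1.22. The part of depth and scaling in these values was not tested. FOXA1 differed by 2.72 ± 1.05 (adjusted p = 0.067), XBP1 by 0.86 ± 0.36 (adjusted p = 0.098) and GATA3 by -0.87 ± 0.41 (adjusted p = 0.14), and none of these 3 passed. FOXA1 was called by edgeR (adjusted p = 0.045), by DESeq2 (adjusted p = 0.0067), with a pseudocount of 5 (adjusted p = 0.02) and in a fit of these groups alone (adjusted p = 0.017), and XBP1 by DESeq2 (adjusted p = 0.028).

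**Figure D1:**
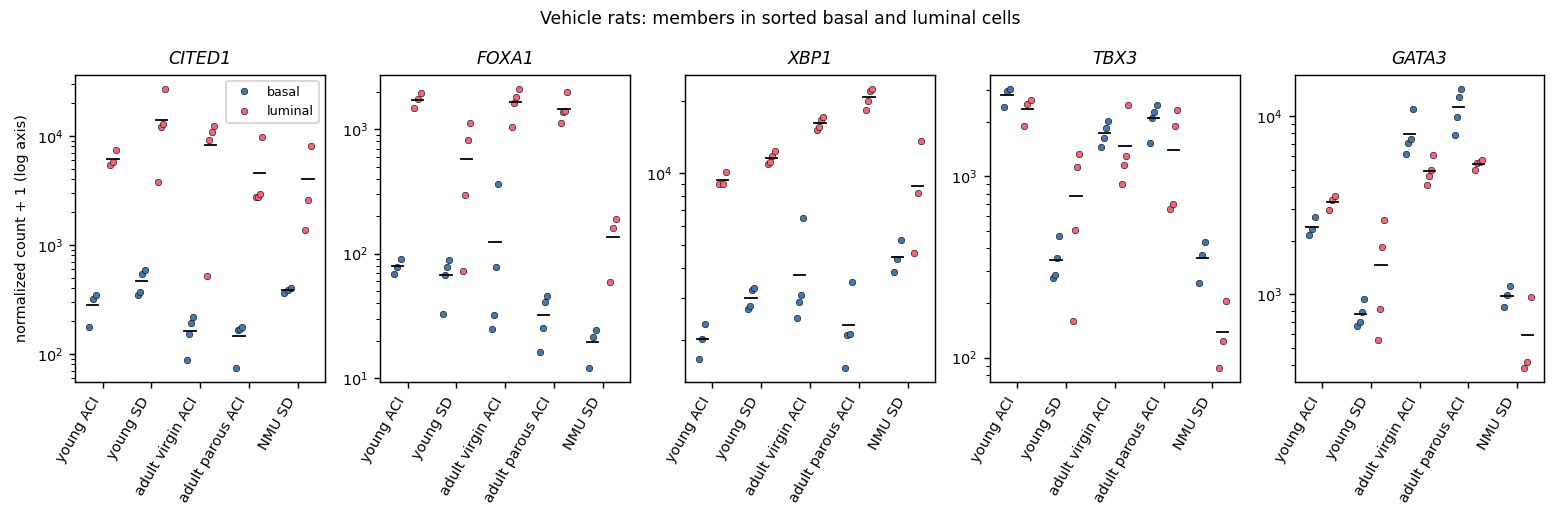
Normalized counts + 1 (log axis) of the 5 members in the bulk tables in luminal and basal cells of vehicle rats, 1 point per rat and a short line at each group's mean, by experiment, with adult values on the common scale of both cell types. In young ACI rats the 3 luminal FOXA1 points lie at 1486 to 1962 and the basal ones at 67.7 to 90.1, whereas the GATA3 points of both cell types lie close together.

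The sorted single-cell libraries were compared in a similar way with GREB1 included, but over the rats of both arms, with the arm as a covariate. When all cells of each library were summed, all 6 members differed between the sorts in both strains, where 73.8% (ACI) and 64.2% (SD) of genes were called. CITED1 was higher in the luminal sort by 6.92 ± 0.27 in ACI and 6.69 ± 0.40 in SD rats, FOXA1 by 7.93 ± 0.47 and 6.20 ± 0.51, XBP1 by 3.90 ± 0.16 and 2.78 ± 0.17, TBX3 by 1.53 ± 0.13 and 0.62 ± 0.21, and GATA3 by 0.82 ± 0.12 and 0.88 ± 0.17. GREB1 went the other way and was lower in the luminal sort, with differences of -6.89 ± 0.26 and -3.57 ± 0.49 (largest edgeR adjusted p of the 12 = 0.014). FOXA1 had 431 UMIs in the luminal and 1 in the basal sort of ACI rats, a ratio per UMI of 405 (exact binomial 95% interval 72.3 to 16034, counting error only). In SD rats it had 492 and 3 UMIs, a ratio of 88.5 (30.1 to 431). GREB1 had 758 UMIs in the basal and 6 in the luminal sort of ACI rats (134 times as many per UMI, 61.5 to 367). In SD rats it had 242 and 35 (12.8 times, 8.96 to 18.8). These UMIs are summed over both arms. Before deposit the study had removed sorted cells that lay in a cluster made up almost wholly of the other sort. The sorts were thus partly set apart by expression, and the part of that filter in these differences was not tested. In vehicle rats alone the sorts did not overlap for any member in either strain. The share of all genes without overlap was not counted, so this is not read as particular to the members. FOXA1 had 4.87 to 9.63 CPM in the luminal sort of ACI and 2.97 to 6.51 of SD vehicle rats and no UMI in the basal sorts, and GREB1 had 10.7 to 12.6 and 2.88 to 5.15 CPM in the basal and 0 to 0.0917 and 0 to 0.205 in the luminal sorts. No call in this comparison was lost when any 1 rat was left out.

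Cells were then clustered, and clusters were named from markers that held no member of this group (for mature luminal cells ESR1, PGR, PRLR, AREG, WNT4, TNFSF11, UPK3A, UPK1B and STC2). Of these UPK1B went against the class, since it was lower in the luminal than in the basal sort, with differences of -10.76 in ACI and -10.71 in SD rats on the log2 scale, and the classes were not rebuilt without it. Clustering used 2000 variable genes measured in these same cells, so levels between classes are a description with no test. Mature luminal-like cells numbered 3536 of 16762 in sorted ACI, 6156 of 39766 in sorted SD and 4443 of 103524 cells in whole glands. In vehicle ACI rats CITED1 had 494, 588 and 643 CPM in mature luminal-like, 2.96, 3.25 and 19.4 in luminal progenitor-like and 0.867, 2.02 and 2.37 in basal-like cells. In the same order of classes FOXA1 had 10.1, 11 and 12.3 CPM, then 0, 0.185 and 0.493, then 0, 0 and 0. GATA3 had 401, 405 and 451, then 114, 115 and 129.6, then 118, 121 and 148. XBP1 had 229, 268 and 271, then 38.9, 42.2 and 46.9, then 8.53, 9.79 and 10.2. TBX3 had 145, 147 and 158, then 9.74, 9.86 and 12.2, then 22.8, 26.9 and 30.4. GREB1 stood apart, with 0, 0 and 0.128 CPM in mature luminal-like, 0, 0 and 0 in luminal progenitor-like and 13.4, 13.9 and 14.9 in basal-like cells. RNA free in the droplets was not modelled, so the low CITED1 levels outside the mature luminal-like class are not read as expression.

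Levels of the members were also taken in the other cells of whole glands. RNA free in the droplets was not modelled there either, so the levels outside the class with the most RNA of a gene are values only and are not read as expression. Over the 3 vehicle rats the median FOXA1 level was 21.7 CPM in mature luminal-like and 2.58 in luminal progenitor-like cells. CITED1 had a median of 843 CPM in mature luminal-like cells, 2.59 in endothelium-like, 2.66 in T cell-like, 41.4 in fibroblast-like and 46.9 in mural-like cells. GATA3 was at 427 CPM in mature luminal-like, 51 in basal-like, 47.3 in luminal progenitor-like and 54.3 in T cell-like cells. TBX3 was at 41.5 in mature luminal-like and 13.4 in mural-like cells. XBP1 was above 0 in all named classes, with 126 in mature luminal-like and 144 in Schwann-like cells.

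The estradiol experiment compared luminal cells of ACI rats with and without E2, the ligand of the estrogen receptor. In vehicle rats CITED1, FOXA1 and GATA3 fell with E2, TBX3 was just outside the threshold and XBP1 was not called. CITED1 had 679.7, 842, 1380.4 and 4082 normalized counts without E2 and 0, 21.4, 58.3 and 68.3 with E2. Every rat with E2 was below every rat without, and the change was -6.27 ± 1.09 (adjusted p = 0.0052). The call was kept in 8 of 8 fits that left out 1 rat (-6.93 to -4.89, adjusted p up to 0.021). With 1 E2 rat at 0, the size of the CITED1 change depends on the pseudocount. FOXA1 had 403, 419, 845 and 3043 without and 74.7, 92.6, 151 and 153 with E2, again without overlap, a change of -2.84 ± 0.60 (adjusted p = 0.023). GATA3 had 3807, 5329, 8637 and 16735 without and 2549, 2663, 2835 and 3112 with E2, a change of -1.40 ± 0.33 (adjusted p = 0.036). TBX3 had 1197, 2266, 3851 and 4534 without and 280.3, 446, 671 and 775 with E2 (-2.37 ± 0.59, adjusted p = 0.052), and it was called by DESeq2 (adjusted p = 0.00093) and in a fit of these groups alone (adjusted p = 0.017). XBP1 had 9579, 10168, 13948 and 15322 without and 10289.9, 15771, 17873 and 20535 with E2, and its change of 0.38 ± 0.29 (adjusted p = 0.6) had a 95% interval of -0.18 to 0.94. Thus 3 of 5 members were called beside 1.48% of 13590 genes. The FOXA1 call was lost without no-E2 rat 1 or 3 or E2 rat 1 or 2 (-3.18 to -2.21, adjusted p up to 0.076). The GATA3 call was lost without no-E2 rat 1 or 3 or any of the 4 E2 rats (-1.72 to -1.01, adjusted p up to 0.097) and in a fit of these groups alone (adjusted p = 0.1). All vehicle rats with E2 bore tumors and all without were tumor-free, so E2 and tumor state cannot be told apart in this arm. In bulk cells, fewer cells of a type and less RNA per cell cannot be told apart either.

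In TGFBRi-treated rats, tumor-free with and without E2, the same comparison called CITED1 and GATA3. CITED1 had 1885, 2317 and 4761 without E2 and 30.9, 82.5, 122 and 277 with E2, a change of -4.81 ± 1.17 (adjusted p = 0.028) and no overlap. GATA3 had 6607, 8802 and 9649 without and 2533, 2696, 3016 and 3208 with E2 (-1.53 ± 0.35, adjusted p = 0.021). FOXA1 had 776, 1652 and 2979 without and 297, 474, 604 and 859 with E2 (-1.59 ± 0.65, adjusted p = 0.18), TBX3 differed by -1.47 ± 0.64 (adjusted p = 0.22) and XBP1 by -0.16 ± 0.31 (adjusted p = 0.83). As in the vehicle arm, DESeq2 called TBX3 (-1.75, adjusted p = 0.042), and FOXA1 was called with the 4 samples of 1 rat taken as separate (-1.96, adjusted p = 0.032). The 2 called members stand beside 4.58% of genes. The CITED1 call was lost without any 1 of the 3 no-E2 rats, E2 replicate 1 or E2 replicate 5 (-5.32 to -4.28, adjusted p up to 0.097), and the GATA3 call without no-E2 rat 1 or 3 or E2 replicate 5 or 7 (-1.69 to -1.42, adjusted p up to 0.089). The 2 tumor-bearing TGFBRi rats with E2 had 128 and 1231 for CITED1 and 256 and 967 for FOXA1. The difference between the arms in the E2 effect was 1.45 ± 1.60 (adjusted p = 1) for CITED1 and 1.25 ± 0.88 (adjusted p = 1) for FOXA1. In this interaction the vehicle rats with E2 bore tumors and the TGFBRi rats with E2 were tumor-free. Arm and tumor state thus cannot be told apart in it. No member and 0% of genes were called in this interaction by limma (0 members at an unadjusted p under 0.05, 0 by edgeR and 0 by DESeq2, 579 genes at an unadjusted p under 0.05, 0 by edgeR and 17 by DESeq2), so a different E2 effect in the arms was not detected.

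Other genes of the luminal lineages moved in the same comparison. Among 18 other mature luminal genes 3 fell in vehicle rats, the stanniocalcin gene STC2 (log2 change -5.63 ± 1.12), the WNT ligand gene WNT4 (-2.78 ± 0.53) and PRLR (-1.78 ± 0.39), and none rose. Their median change was -0.49, beside a median of -2.37 over the 5 members and 0.00 over all genes. In TGFBRi rats 4 of 18 fell, STC2 (-7.43 ± 1.21), PRLR (-2.52 ± 0.42), WNT4 (-2.46 ± 0.58) and SPDEF (-2.12 ± 0.57). Milk genes rose, 2 of 7 in vehicle rats (CSN1S2A by 5.54 ± 0.70 and GLYCAM1 by 4.94 ± 0.98) and 6 of 7 in TGFBRi rats. Of 16 genes that XBP1 is known to induce, none was called in either arm. Summed levels of other cell types' markers were taken in the same samples. In vehicle rats milk genes summed to 8084 to 98695 CPM without and 151852 to 186419 with E2, luminal progenitor genes to 10125 to 37395 and 32940.5 to 41647, and basal markers to 112 to 291 and 269.7 to 401. The milk sums did not overlap, and the others did. Leukocyte markers summed to 7.04 to 16.4 and 7.99 to 48.7 CPM, with MS4A1 at 0 in both groups, and stromal markers to 166 to 329.6 and 78.8 to 1144. The part of these cell types in the fall of CITED1, FOXA1 and GATA3 was not tested.

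Between the arms, no member was called in this experiment. With E2, TGFBRi tumor-free rats had 297, 474, 604 and 859 FOXA1 counts against 74.7, 92.6, 151 and 153 in vehicle rats, without overlap, a difference of 2.20 ± 0.60 (adjusted p = 0.37) that DESeq2 called (adjusted p = 0.049). CITED1 had 30.9, 82.5, 122 and 277 against 0, 21.4, 58.3 and 68.3, and one TGFBRi rat lay within the vehicle range (2.49 ± 1.09, adjusted p = 0.77). These vehicle rats bore tumors, so arm and tumor state cannot be told apart here. In the 2 tumor-bearing TGFBRi rats CITED1 differed by 4.52 ± 1.33 (adjusted p = 0.54) and FOXA1 by 2.13 ± 0.74 (adjusted p = 0.67). Without E2 the differences were 1.04 ± 1.17 (adjusted p = 1) for CITED1 and 0.94 ± 0.65 (adjusted p = 1) for FOXA1. The shares of genes called were 0.0147%, 0.00736% and 0.0147% in these 3 comparisons. Members at an unadjusted p under 0.05 numbered 2, 3 and 0, and edgeR called none in any of them.

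**Figure D2:**
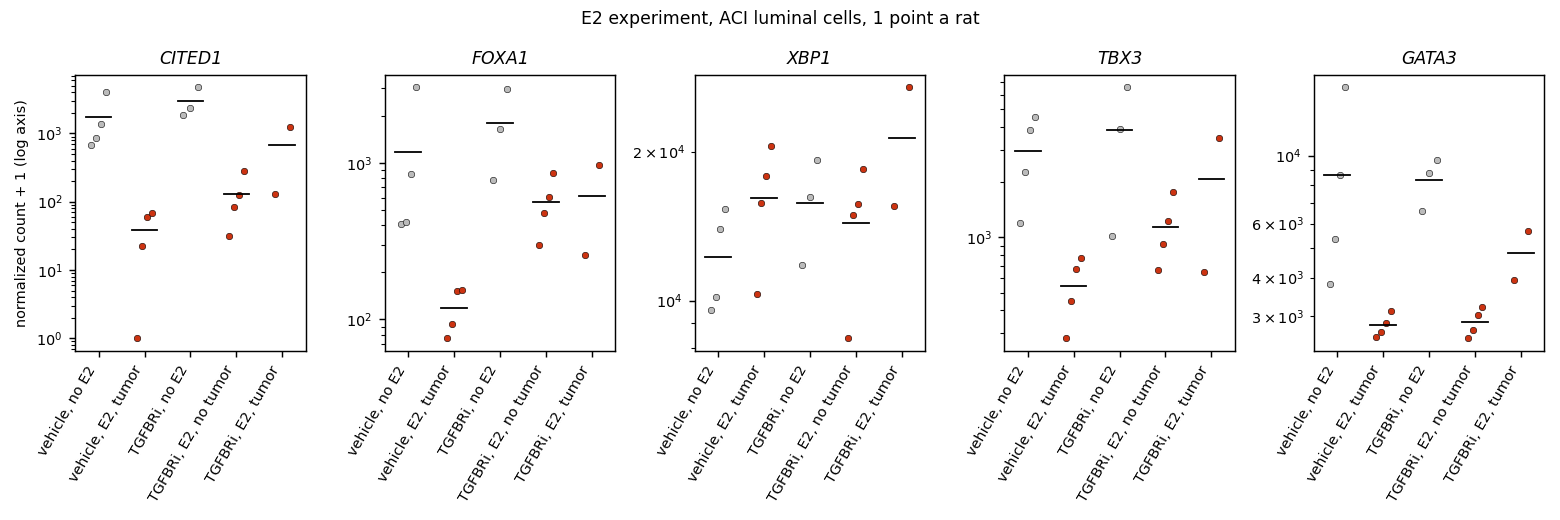
Normalized counts + 1 (log axis) of the 5 members in luminal cells of ACI rats without and with E2, by arm and tumor state, 1 point per rat and a short line at each mean. CITED1 lies at 679.7 to 4082 in vehicle rats without E2 and at 0 to 68.3 with E2, while the XBP1 points of vehicle rats with and without E2 overlap.

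The study asked whether a short TGFBRi treatment keeps mammary tumors from forming, and the comparisons of the arms here describe the members in the treated cells. In bulk luminal cells at day 0 of young ACI rats, CITED1 had 5457, 5745 and 7373 normalized counts in vehicle and 1406, 1882 and 2365 in TGFBRi rats, and all TGFBRi rats were below all vehicle rats. The TGFBRi libraries differed in depth, with 2 at 8922897 and 10192039 reads on genes against 18895823 to 21160386 in the vehicle libraries, and the TGFBRi library of 18568520 reads had the lowest CITED1 value. FOXA1 had 1486, 1756 and 1962 against 2139, 2689 and 2958, and TBX3 had 1886, 2489 and 2638 against 3568, 4314 and 5073, both with all TGFBRi rats above all vehicle rats, and in both the TGFBRi library of vehicle-like depth had the lowest value of its arm. With the spread estimated over all days the differences were -1.74 ± 0.89 (adjusted p = 0.3) for CITED1, 0.58 ± 0.67 (adjusted p = 0.72) for FOXA1 and 0.89 ± 0.71 (adjusted p = 0.56) for TBX3, and no member was called beside 1.01% of genes (0 members at an unadjusted p under 0.05, 0 by edgeR and 0 by DESeq2). A fit of the day 0 luminal samples alone called 11.6% of genes (1669 of 14434) and all 3 of these members, CITED1 at an adjusted p of 0.00036, FOXA1 at 0.042 and TBX3 at 0.0072, so the calls changed with the samples that set the spread. XBP1 had 8965, 9035 and 10066 against 7110.3, 8432 and 10091 (-0.14 ± 0.24, adjusted p = 0.82, 95% interval -0.62 to 0.33), and GATA3 had 2960.3, 3388 and 3562 against 3305, 3741 and 3814 (0.13 ± 0.37, adjusted p = 0.9).

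At day 7, where 1 of the 3 vehicle luminal libraries (replicate 3) is called treated in its description, CITED1 had 3001, 6062 and 39606 in vehicle and 6169, 7378 and 29955 in TGFBRi rats (0.31 ± 0.89, adjusted p = 0.95), and at day 14 1713, 6033 and 6296 and 3706, 4782 and 26487 (0.95 ± 0.89, adjusted p = 0.85). The groups overlapped on both days. Without that day 7 library the CITED1 difference on day 7 and its change from day 0 were also not called (1.38, adjusted p = 0.93, and 3.11, adjusted p = 0.38). No member was called on either day, with 0% and 0% of genes called (0 members at an unadjusted p under 0.05 and by edgeR and DESeq2, 1172 and 1268 genes at an unadjusted p under 0.05, 0 and 0 by edgeR, 252 and 268 by DESeq2). The change of the CITED1 difference between day 0 and day 7 was 2.04 ± 1.25 (adjusted p = 0.76) and between day 0 and day 14 2.69 ± 1.25 (adjusted p = 0.57), and in these interactions no member and 0% and 0.00659% of genes were called (0 and 1 members at an unadjusted p under 0.05, 0 by edgeR and DESeq2). In young SD rats CITED1 had 3777, 12113, 12826 and 27225 in vehicle and 5838, 6317, 11933 and 17017 in TGFBRi rats (-0.27 ± 0.55, adjusted p = 1). XBP1 differed there by -0.33 ± 0.35 (adjusted p = 1) with a 95% interval of -1.01 to 0.36, and FOXA1 by 0.14 ± 0.77 (adjusted p = 1). No member and 0% of 12584 genes were called (0 members and 244 genes at an unadjusted p under 0.05, 0 members by edgeR and DESeq2).

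Adult luminal cells and the NMU experiment gave no call of a member either. In adults CITED1 differed by -0.86 ± 1.01 (adjusted p = 0.9) in virgin and -0.96 ± 1.01 (adjusted p = 0.71) in parous rats, GATA3 by 0.58 ± 0.25 (adjusted p = 0.71) and 0.18 ± 0.25 (adjusted p = 0.79), and TBX3 by 0.65 ± 0.56 (adjusted p = 0.85) and 1.05 ± 0.56 (adjusted p = 0.43). Of all genes 0% and 0.0281% were called (1 and 0 members at an unadjusted p under 0.05, 0 by edgeR and DESeq2, 976 and 1858 genes at an unadjusted p under 0.05, 0 and 5 by edgeR and 15 and 212 by DESeq2). In luminal cells of NMU rats, tumor-free TGFBRi against tumor-bearing vehicle rats, CITED1 differed by -1.05 ± 1.04 (adjusted p = 0.62) and GATA3 by 0.74 ± 0.44 (adjusted p = 0.37). For tumor-bearing TGFBRi rats these were 0.84 ± 1.04 (adjusted p = 0.73) and 0.76 ± 0.44 (adjusted p = 0.41), with 0.948% and 0.212% of genes called (0 members at an unadjusted p under 0.05, by edgeR or by DESeq2). These shares are 134 and 30 genes, where 2688 and 2287 were at an unadjusted p under 0.05, edgeR called 495 and 150 and DESeq2 1360 and 1079. For tumor-free rats limma called 122 genes higher and 12 lower, and DESeq2 502 higher and 858 lower, so the direction of the calls changed with the method. In EPCAM+ tumor cells GATA3 had 1056, 1117 and 1929 in vehicle and 221, 378 and 633 in TGFBRi tumors, without overlap. The difference of -1.81 ± 0.49 (adjusted p = 1) did not pass after adjustment. FOXA1 differed by -1.44 ± 0.79 (adjusted p = 1) and XBP1 by -0.67 ± 0.48 (adjusted p = 1). In these tumors 0% of 12951 genes were called (1 member and 278 genes at an unadjusted p under 0.05, 0 members by edgeR and DESeq2, 0 genes by edgeR and 6 by DESeq2).

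In basal cells 1 member was called in the 8 comparisons of TGFBRi with vehicle. TBX3 in virgin adult ACI rats had 1584, 1744, 2077 and 2149 normalized counts in vehicle and 619, 738, 1148 and 1761 in TGFBRi rats, a change of -0.93 ± 0.27 (adjusted p = 0.039) beside 8.73% of genes called. The groups overlapped. The call was lost without any 1 of the vehicle rats or TGFBRi rat 3 or 4 (-1.22 to -0.71, adjusted p up to 0.11), with edgeR (adjusted p = 0.072) and in a fit of these groups alone (adjusted p = 0.17). FOXA1, low in basal cells, had 25.8, 33.4, 83.1 and 411 against 0, 0, 1.44 and 148 (-4.11 ± 1.36, adjusted p = 0.069). With 2 TGFBRi rats at 0 its size depended on the pseudocount (-2.70 with a pseudocount of 5), and it was called without TGFBRi rat 1, which made 2 members called. Other mature luminal genes fell in the same samples, 3 of 18 (PGR -5.84 ± 1.14, ERBB3 -2.05 ± 0.41 and STC2 -4.31 ± 0.97). Of 9 basal markers ACTA2 rose, with a change of 1.92 ± 0.28, and KRT5 fell, with a change of -1.22 ± 0.36. The part of luminal cells within the basal sort in the TBX3 value was not tested. In the other 7 basal comparisons no member was called, beside 3.34%, 0.00639% and 0% of genes at days 0, 7 and 14 of young ACI rats, 0% in young SD, 0.00744% in parous ACI, 0% in tumor-free and 1.31% in tumor-bearing NMU rats. In these 7 no member passed an unadjusted p of 0.05, edgeR or DESeq2.

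Parity, the state of having carried a pregnancy, was compared in the same adult rats. In vehicle luminal cells of virgin and parous rats CITED1 had 489, 8465, 10006 and 11642 and 2601, 2613, 2758 and 9078 normalized counts. One virgin and one parous rat stood far from the rest of their group, and the difference was -0.38 ± 1.01 (adjusted p = 0.94). FOXA1 differed with parity by -0.14 ± 0.37 (adjusted p = 0.94), GATA3 by 0.16 ± 0.25 (adjusted p = 0.89) and XBP1 by 0.37 ± 0.18 (adjusted p = 0.53). No member was called in luminal cells in vehicle rats, TGFBRi rats or the interaction, where 0%, 0% and 0% of genes were called (0 members at an unadjusted p under 0.05, by edgeR or by DESeq2, 1361, 419 and 606 genes at an unadjusted p under 0.05, 3, 0 and 0 by edgeR and 119, 0 and 3 by DESeq2). In basal cells of TGFBRi rats TBX3 was higher in parous rats, with 2016, 2363, 2406 and 2453 against 619, 738, 1148 and 1761 in virgin rats (1.23 ± 0.27, adjusted p = 0.0085, beside 12.1% of genes). Every parous rat was above every virgin rat, and the call was kept in 8 of 8 fits that left out 1 rat, but not in a fit of these groups alone (adjusted p = 0.063). In vehicle rats the TBX3 difference with parity was 0.23 ± 0.27 (adjusted p = 1), and 0 members and 0% of genes were called there (2 members and 408 genes at an unadjusted p under 0.05, 0 members by edgeR and DESeq2, 14 genes by DESeq2). The interaction of parity with TGFBRi for TBX3 was 1.00 ± 0.38 (adjusted p = 0.2) and did not pass, beside 1.04% of genes (0 members called by limma, edgeR or DESeq2, 2 at an unadjusted p under 0.05). Without virgin TGFBRi rat 1 both FOXA1 and TBX3 passed in the interaction. The parous and virgin contrasts share their rats with the TGFBRi contrasts.

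**Figure D3:**
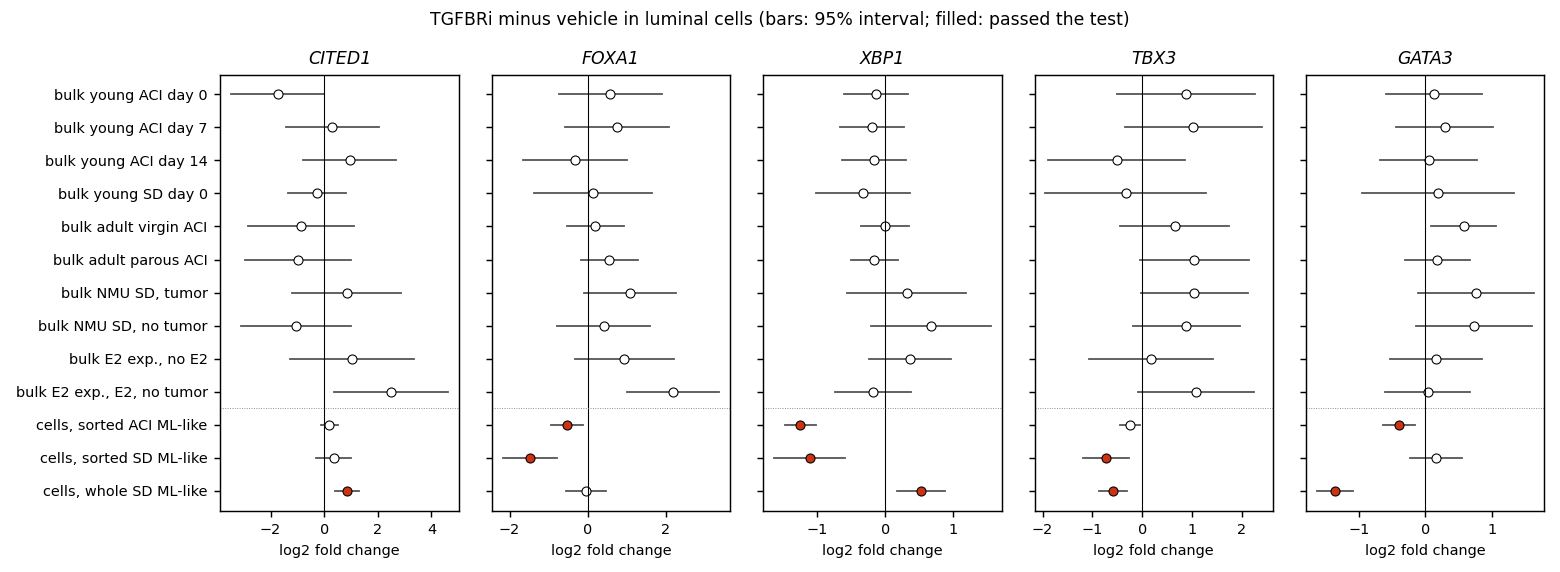
Log2 fold change of each member of the bulk tables, TGFBRi minus vehicle, in bulk luminal cells and, below the dotted line, in mature luminal-like single cells. Bars give the 95% interval, and points are filled where the test passed. EPCAM+ tumor cells and the tumor-bearing rats with E2 are not drawn. No bulk value passed, and for XBP1 in young ACI rats at day 0 the interval ran from -0.62 to 0.33.

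Single cells gave the comparison within the mature luminal-like class itself, and XBP1 fell with TGFBRi in both sorted experiments. In ACI rats XBP1 had 229, 268 and 271 CPM in vehicle and 82.2, 92.2 and 103.4 in TGFBRi rats, without overlap, a change of -1.25 ± 0.12 (adjusted p = 5.1e-05). In SD rats it had 96, 107.3 and 132 CPM in vehicle and 23.1 (lowest), 36.8 (median) and 65.7 (highest) in TGFBRi rats (-1.11 ± 0.27, adjusted p = 0.018). FOXA1 also fell in both. In SD rats it had 10.9, 13.5 and 16.9 CPM in vehicle and 2.11 (lowest), 3.34 (median) and 7.15 (highest) in TGFBRi rats (-1.48 ± 0.35, adjusted p = 0.017). In ACI rats FOXA1 had 10.1, 11 and 12.3 against 5.08, 7.09 and 7.83 (-0.52 ± 0.21, adjusted p = 0.099), which DESeq2 did not call (adjusted p = 0.21). That ACI call was lost in 5 of 6 fits that left out 1 rat, all but the fit without TGFBRi rat 3 (-0.63 to -0.36, adjusted p up to 0.32). It was also lost without the 6% of cells with the most UMIs (adjusted p = 0.18) and with a cluster that holds both marker sets added to the class (adjusted p = 0.1). GATA3 fell in ACI rats with a log2 change of -0.40 ± 0.12 (adjusted p = 0.036), with 401, 405 and 451 against 228, 270.5 and 324 CPM, and the call was lost without TGFBRi rat 3 or vehicle rat 1 or 2 (-0.53 to -0.31, adjusted p up to 0.19). In SD rats GATA3 differed by 0.17 ± 0.20 (adjusted p = 0.57). TBX3 fell in SD rats with a log2 change of -0.73 ± 0.24 (adjusted p = 0.044), lost without vehicle rat 2 or 3 (-0.91 to -0.52, adjusted p up to 0.2), and differed by -0.24 ± 0.10 (adjusted p = 0.12) in ACI rats, where it was called with edgeR's own filter (adjusted p = 0.092) and without the 6% of cells with the most UMIs (-0.27, adjusted p = 0.086). CITED1 had 494, 588 and 643 CPM in vehicle and 387, 619 and 702 in TGFBRi ACI rats (0.20 ± 0.17, adjusted p = 0.46), and differed by 0.36 ± 0.33 (adjusted p = 0.46) in SD rats. GREB1 was too rare to test in ACI rats and differed by 2.38 ± 1.67 (adjusted p = 0.31) in SD rats. Called members were 3 of 5 tested in ACI and 3 of 6 in SD rats, all lower, beside 25.8% and 31.5% of genes called in either direction.

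The SD mature luminal-like class held a cluster of 2319 cells of which 98.7% came from TGFBRi rats, led by secretory genes such as SPT1 and GLYCAM1, and a cluster of 3837 cells of which 63.8% did. With the first cluster left out, a choice made after seeing the data, XBP1 changed by -0.78 (adjusted p = 0.017) and FOXA1 by -1.06 (adjusted p = 0.025), and TBX3 was no longer called (-0.38, adjusted p = 0.21). Of 16 genes that XBP1 is known to induce, 7 rose and none fell in ACI rats (the chaperone genes DNAJB9 by 0.98 ± 0.14 and MANF by 0.78 ± 0.12), and 6 rose and 3 fell in SD rats (SEC61B by 0.99 ± 0.22, SEL1L with -1.04 ± 0.28). Milk genes rose in 5 of 6 tested in ACI and 4 of 7 in SD rats, and their summed level was 101.2 to 162 CPM in vehicle against 236 to 415 in TGFBRi ACI rats and 72.5 to 109.8 against 148 to 16991 in SD rats. Of the other mature luminal genes 3 rose and 4 fell of 15 in ACI and 3 rose and 1 fell of 16 in SD rats. Their part in the XBP1 and FOXA1 values was not tested. Mature luminal-like cells made up 33.5 to 67.7% of the luminal sort in vehicle and 43.6 to 57.1% in TGFBRi ACI rats, and 16.0 to 24.2% and 18.4 to 44.9978% in SD rats.

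Whole glands of SD rats gave a different set. GATA3 fell, with 324, 427 and 502 CPM in vehicle and 134 (lowest), 174 (median) and 193 (highest) in TGFBRi rats, without overlap (-1.36 ± 0.14, adjusted p = 5.1e-05). TBX3 fell by 0.59 ± 0.14 (adjusted p = 0.012), with 38.1, 41.5 and 49.5 against 24.4 (lowest), 29.2 (median) and 38.7 (highest) CPM. CITED1 rose by 0.85 ± 0.23 (adjusted p = 0.024), with 419.7, 843 and 868 against 1059 (lowest), 1237 (median) and 1766 (highest). XBP1 rose by 0.52 ± 0.18 (adjusted p = 0.063), with 113, 126 and 146 against 145 (lowest), 182 (median) and 264 (highest), and that call was lost without vehicle rat 1 or 2 or TGFBRi rat 2 or 6 (0.42 to 0.61, adjusted p up to 0.2) and without the 6% of cells with the most UMIs (adjusted p = 0.18). FOXA1 differed by -0.04 ± 0.26 (adjusted p = 0.93), a 95% interval of -0.55 to 0.46, and GREB1 by -1.79 ± 1.09 (adjusted p = 0.27). Thus 4 of 6 members were called, 2 in each direction, beside 28.1% of genes. Basal markers in these cells summed to 155 to 855 CPM in vehicle and 56.7 to 75.9 in TGFBRi rats, luminal progenitor genes to 1492 to 2231 and 575 to 721, and leukocyte markers to 10.5 to 52.8 and 45.9 to 108.04. The part of cells or RNA of other types in the fall of GATA3 was not tested.

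The difference between experiments was itself tested within the mature luminal-like class, after the separate effects had been seen. The TGFBRi effect was higher in whole glands than in sorted SD cells by 1.61 ± 0.35 (adjusted p = 0.0034) for XBP1 and 1.43 ± 0.45 (adjusted p = 0.031) for FOXA1, and it was lower for GATA3, with a difference of -1.56 ± 0.26 (adjusted p = 0.00058). Against sorted ACI cells it was 1.80 ± 0.24 (adjusted p = 0.00016) for XBP1 and -0.94 ± 0.21 (adjusted p = 0.0062) for GATA3. No call was lost when any 1 rat was left out. The shares of genes called were 29.1% and 20.7%. Between the sorted experiments no member and 0.2% of genes were called (1 member at an unadjusted p under 0.05, 0 by DESeq2), and the XBP1 difference was 0.14 ± 0.35 (adjusted p = 0.89) with a 95% interval of -0.53 to 0.82. Sorted and whole-gland cells differed in sort, chemistry (3′ and 5′ libraries) and the filter on cells, and against sorted ACI cells also in strain. These cannot be told apart.

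**Figure D4:**
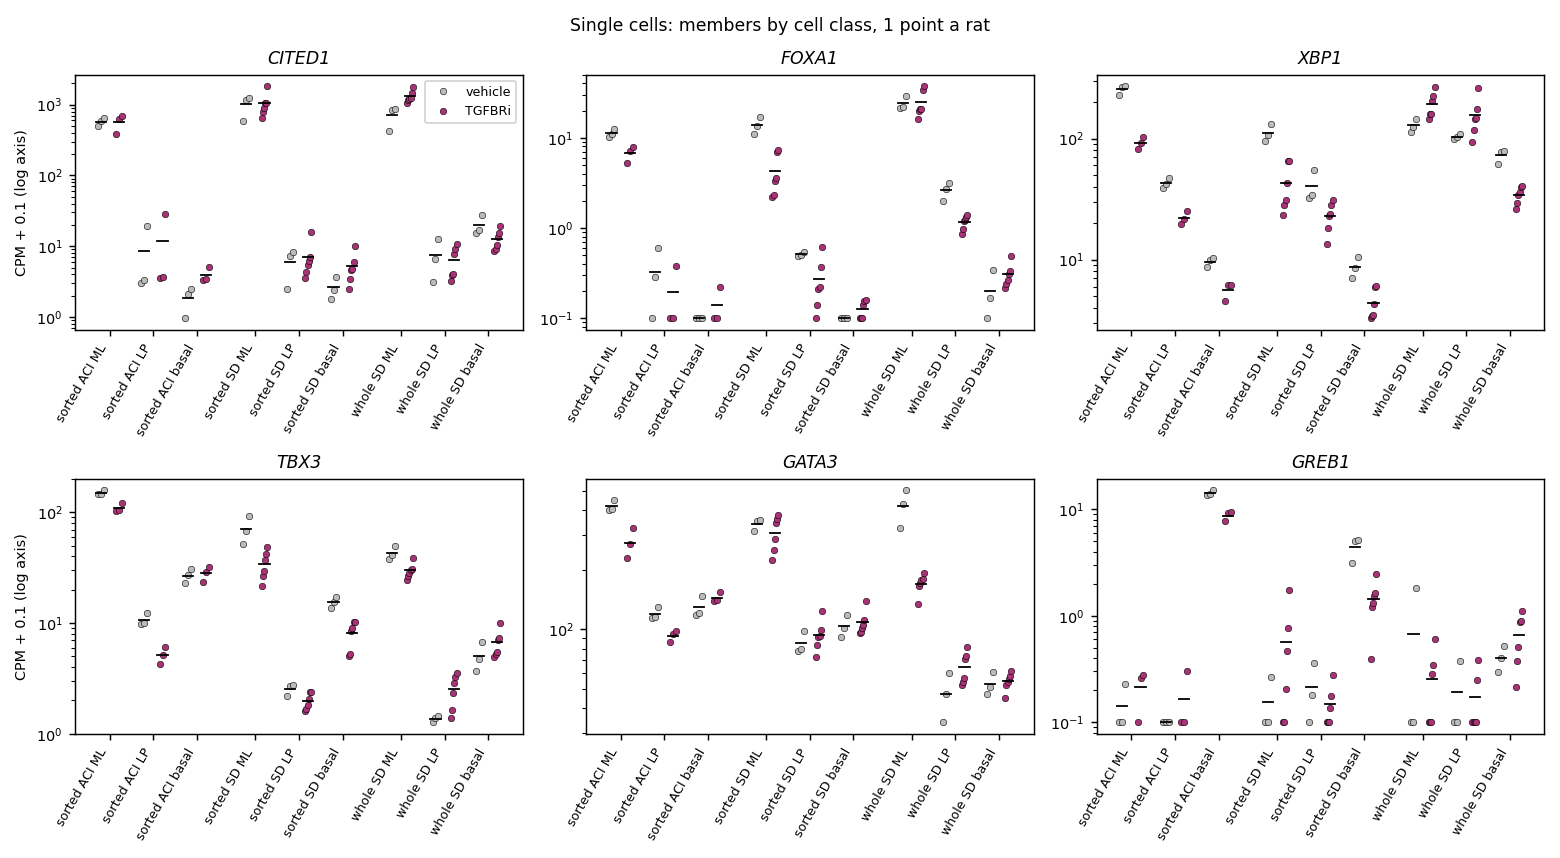
CPM + 0.1 (log axis) of the 6 members in mature luminal-like, luminal progenitor-like and basal-like cells of vehicle and TGFBRi rats in the 3 single-cell experiments, 1 point per rat and a short line at each mean. In mature luminal-like ACI cells XBP1 lies at 229 to 271 CPM in vehicle and 82.2 to 103.4 in TGFBRi rats, and in the sorted experiments GREB1 lies highest in basal-like cells.

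The same members were measured in luminal progenitor-like cells. In ACI rats XBP1 was lower with TGFBRi by 0.64 ± 0.14 (adjusted p = 0.0079), with 38.9, 42.2 and 46.9 CPM in vehicle and 19.5, 21.4 and 25 in TGFBRi rats. TBX3 was lower by 0.74 ± 0.24 (adjusted p = 0.042). That call was lost without TGFBRi rat 2 or 3 or vehicle rat 1 (-0.85 to -0.61, adjusted p up to 0.17) and with DESeq2 (adjusted p = 0.18). In SD rats no member was called by edgeR (0 at an unadjusted p under 0.05, 0 by DESeq2), and XBP1 differed by -0.47 ± 0.23 (adjusted p = 0.17) and GATA3 by 0.54 ± 0.26 (adjusted p = 0.16). In whole glands FOXA1 was lower with TGFBRi by 1.34 ± 0.33 (adjusted p = 0.018). It had 1.9, 2.58 and 3.02 CPM in vehicle against 0.752 (lowest), 1.11 (median) and 1.3 (highest) in TGFBRi rats. The call was lost without vehicle rat 1 (-1.53 to -1.05, adjusted p up to 0.14). In vehicle rats XBP1 and TBX3 in ACI and FOXA1 in whole glands were higher in mature luminal-like cells, and free RNA was not modelled. These differences are thus not read as changes in expression. Called genes were 25.7% (ACI), 28.5% (SD) and 26.7% (whole gland). GREB1 had too few UMIs to test in this class in all 3 experiments, as had FOXA1 in ACI rats. In SD rats 2 luminal progenitor-like clusters were 99.4% and 99.7% from TGFBRi rats, with 60.1% and 95.96% of their cells from 1 rat each, and with both left out GATA3 was called (0.57, adjusted p = 0.072). In whole glands GATA3 (0.49, adjusted p = 0.096) and TBX3 (1.73, adjusted p = 0.016) were called without the 6% of cells with the most UMIs, against 0.41 ± 0.20 (adjusted p = 0.18) and 0.82 ± 0.39 (adjusted p = 0.16) with them.

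In basal-like cells as named here, GREB1 was called lower with TGFBRi in both sorted experiments. It had 13.4, 13.9 and 14.9 CPM in vehicle and 7.58, 9.06 and 9.25 in TGFBRi ACI rats (-0.48 ± 0.16, adjusted p = 0.033), and 3.06, 4.96 and 5.01 and 0.291 (lowest), 1.32 (median) and 2.38 (highest) in SD rats (-1.23 ± 0.38, adjusted p = 0.043). The ACI call was lost without TGFBRi rat 1 (-0.56 to -0.37, adjusted p up to 0.16), with DESeq2 (adjusted p = 0.11) and when an unnamed cluster of the basal sort was added to the class (-0.23, adjusted p = 0.29). That cluster led in basal markers but had markers of another class among its top genes, and it held 20.0, 35.5 and 46.2% of the basal sort in vehicle and 2.25, 4.86 and 5.38% in TGFBRi rats, so the ACI basal-like values of the arms come from unequal parts of the sort. With that cluster added CITED1 (1.26, adjusted p = 0.013), GATA3 (0.36, adjusted p = 0.018) and XBP1 (-0.51, adjusted p = 0.049) were still called. The SD call was lost without vehicle rat 1 or 3 (-1.43 to -1.12, adjusted p up to 0.19). Of the 15121 SD basal-like cells, 3461 formed a cluster wholly from TGFBRi rats, with 98.4% of its cells from 1 rat. GREB1 was still called without any 1 TGFBRi rat and with the clusters of 1 arm left out (-1.48, adjusted p = 0.046). CITED1 was called in these cells, higher with TGFBRi by 1.28 ± 0.34 (adjusted p = 0.012) in ACI and 1.35 ± 0.46 (adjusted p = 0.055) in SD rats, but at 0.867 to 2.37 and 1.67 to 3.63 CPM in vehicle and 3.19 to 4.93 and 2.35 to 9.88 in TGFBRi rats, levels at which free RNA was not modelled, so it is not read as a change in expression. Both calls were lost when clusters with over 95% of cells from 1 arm were left out (ACI 0.80, adjusted p = 0.27, SD 0.61, adjusted p = 0.42), and the SD call also without any 1 of the vehicle rats (1.11 to 1.73, adjusted p up to 0.2). In ACI rats GATA3 rose by 0.39 ± 0.11 (adjusted p = 0.015), with 118, 121 and 148 against 139, 140 and 154 CPM, and with library totals as scaling it was not called (0.16, adjusted p = 0.25). XBP1 was lower with TGFBRi by 0.55 ± 0.19 (adjusted p = 0.048) in ACI rats. That call was lost without TGFBRi rat 2 or vehicle rat 1 or 2 (-0.63 to -0.39, adjusted p up to 0.19). It was also lost with DESeq2 (adjusted p = 0.13) and with the clusters of 1 arm left out (-0.52, adjusted p = 0.15). In whole glands XBP1 was lower by 1.05 ± 0.14 (adjusted p = 0.00026), with 62.2, 76.7 and 79 CPM in vehicle and 26.1 (lowest), 34.9 (median) and 40.3 (highest) in TGFBRi rats. In vehicle rats of both experiments XBP1 was higher in mature luminal-like than in basal-like cells, and free RNA was not modelled. These XBP1 differences are thus not read as changes in expression. GREB1, at 0.195 to 0.418 CPM in whole-gland vehicle rats, differed there by 0.83 ± 0.67 (adjusted p = 0.36). Called members were 4 of 5 tested in ACI, 2 of 5 in SD and 1 of 6 in whole glands, beside 32.3%, 29.4% and 43.8% of genes. Clusters of the basal-like class were split by arm, for example a whole-gland cluster with 2.59% and one with 89.004% of cells from TGFBRi rats, so class and arm are partly tied there.

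The single-cell values were also computed with another scaling. TMM scaling gave 1654 higher and 1583 lower genes with TGFBRi in mature luminal-like ACI cells, and scaling by UMI totals gave 555 and 3206, with the median over all genes shifted by -0.22. In SD cells the split was 2081 and 1993 against 753 and 3270 (shift -0.30), and in whole glands 1718 and 2072 against 2089 and 1757 (shift 0.06). With UMI totals XBP1 changed by -1.46, adjusted p = 3.4e-07, in ACI and -1.39, adjusted p = 0.014, in SD cells, and FOXA1 by -0.74, adjusted p = 0.02, and -1.76, adjusted p = 0.012. TBX3 was called in ACI mature luminal-like cells (-0.45, adjusted p = 0.0073), and the values of CITED1 in ACI (-0.02, adjusted p = 0.96) and GATA3 in SD cells (-0.15, adjusted p = 0.57) changed sign without being called. In whole glands GATA3 (-1.30, adjusted p = 7.5e-05), TBX3 (-0.53, adjusted p = 0.027), CITED1 (0.89, adjusted p = 0.027) and XBP1 (0.59, adjusted p = 0.042) kept their directions. In the other classes UMI totals called GATA3 in ACI luminal progenitor-like cells (-0.37, adjusted p = 0.027), XBP1 in SD luminal progenitor-like (-0.81, adjusted p = 0.065) and SD basal-like cells (-0.97, adjusted p = 0.029), TBX3 in SD basal-like (-0.96, adjusted p = 0.023) and CITED1 in whole-gland basal-like cells (-0.63, adjusted p = 0.092), and no longer called CITED1 in SD basal-like cells (0.93, adjusted p = 0.14). The largest shift of the median was -0.41, in SD basal-like cells.

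Bulk and single-cell values of the members in luminal cells were set side by side, the single cells summed over the whole luminal sort. XBP1 had 150.0 to 213 CPM in vehicle and 56.9 to 76.3 in TGFBRi ACI rats, and 53.9 to 70.4 CPM in vehicle and 18.1 to 41.1 in TGFBRi SD rats, without overlap in either strain. The bulk XBP1 difference at day 0 was -0.14 ± 0.24 in ACI (95% interval -0.62 to 0.33) and -0.33 ± 0.35 in SD rats (-1.01 to 0.36). FOXA1 had 4.87 to 9.63 CPM in vehicle and 3.07 to 4.64 in TGFBRi ACI rats and 2.97 to 6.51 CPM in vehicle and 0.659 to 2.5 in TGFBRi SD rats, all TGFBRi rats below all vehicle rats, whereas in bulk ACI cells all TGFBRi rats were above (0.58 ± 0.67, not called) and the SD difference was 0.14 ± 0.77. CITED1 overlapped in the ACI single cells, with 241 to 362 CPM in vehicle and 220.5 to 382 in TGFBRi rats, whereas all bulk TGFBRi rats were below all vehicle rats (-1.74 ± 0.89, not called). TBX3 also overlapped, with 71.3 to 112 CPM in vehicle and 60 to 79.6 in TGFBRi ACI rats, and was higher in all bulk TGFBRi rats (0.89 ± 0.71, not called). GATA3 had 258 to 329 CPM in vehicle and 174 to 215 in TGFBRi ACI rats, without overlap, beside a bulk difference of 0.13 ± 0.37. No test joined the bulk and single-cell values. By their labels the bulk and single-cell samples came from different rats. Only the single cells were filtered by the study on keratin and PTPRC reads and on clustering with the other sort. The bulk tables count reads over whole transcripts and the sorted single cells count 3′ ends. Their scaling also differed, with size factors in bulk and UMI totals in these CPM. In mature luminal-like cells UMI totals in place of TMM shifted the median over all genes by -0.22 in ACI and -0.30 in SD rats. The part of scaling in the differences listed here was not tested.

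The genes whose pattern was most like each member are given as a description, with Pearson's r of log2(CPM + 1) over the 119 basal and luminal bulk samples of all experiments and 8733 genes. CPM here are the recovered reads scaled to each sample's total, the samples share lineage, depth and experiment, and differences between experiments enter this r. FOXA1 was most like PRLR (r = 0.91), XBP1 like CEACAM1 (r = 0.907), GATA3 like PACSIN2 (r = 0.842), CITED1 like ACAA2 (r = 0.858) and TBX3 like NUMA1 (r = 0.842). In the 68 luminal samples, with each experiment's mean subtracted, FOXA1 was most like TBX3 (r = 0.899), XBP1 like CERS2 (r = 0.818), GATA3 like TRIM8 (r = 0.885) and CITED1 like CMTM8 (r = 0.807).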

How the data were processed

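The authors sorted cells, made bulk libraries (SMARTer v4), aligned reads to rn6 with STAR 2.5.1b, counted them per RefSeq gene with HTSeq without strand, and deposited normalized counts (unit signal), that is, reads divided by DESeq2 1.30.1 size factors. All 2526805 values above 0 gave whole reads (tolerance 0.001). Rows naming no gene, 23.1 to 42.5% of reads in the adult and E2 tables, were left out. For single cells the authors deposited UMI count matrices from Cell Ranger 4.0.0 (sorted, 3′) and 7.0.0 (whole gland, 5′). The study kept cells with at least 100 genes and at most 15% mitochondrial reads, and sorted cells with at least 2 keratin reads and no PTPRC read. It also removed sorted cells that lay in a cluster made up almost wholly of the other sort, as mislabeled by sorting.

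Bulk values were fitted with limma 3.58.1 (trend, robust) on log2(value + 1) for genes whose values added up to 10 or more, with all groups of an experiment in 1 model. Lineage fits joined basal and luminal cells, for adults after a common median-of-ratios scaling of recovered reads. Single-cell UMIs were summed per rat and class (at least 10 cells), and genes with at least 10 counts were tested with edgeR 4.0.16 (quasi-likelihood, TMM). DESeq2 1.42.0, edgeR on recovered reads, a pseudocount of 5, no filter, fits of the compared groups alone and leaving out each rat were alternatives. Cells were clustered with scanpy 1.11.5 and leidenalg 0.10.2 (2000 variable genes, 30 components, 20 neighbors, resolution 0.8), and a cluster was named from at least 3 detected markers. Doublets were not called, and the classes were also tested without the 6% of cells with the most UMIs. No deposited annotation of cells was used, so classes may differ from the study's. Basal and luminal samples came from the same rats. The correlation of their deviations from the group means had a median of 0.467 in young ACI (18 pairs, -0.02 to 0.79), 0.135 in young SD (8 pairs), 0.128 in NMU (9 pairs) and 0.139 in adult rats (16 pairs), and rat was a block in an alternative fit.

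The 6 members were named in every comparison and, of the companion lists, up to 4 genes with the smallest adjusted p among those that passed. Members, lists and parts of the design were chosen with earlier results of these data known. One vehicle rat of young ACI rats at day 7 (replicate 3, basal and luminal) is called control in its title and treated in its description, and the title and treatment field were followed. Its libraries also enter the spread used for days 0 and 14. Counting intervals cover counting error only. The scripts were tested on simulated counts with 200 changed genes.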

Additional observations from a re-analysis of the deposited data

Results flagged for a closer look

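In 4 groups (3.77% of those with 4 to 10 rats that were tested), the highest or lowest rat lay further from its nearest neighbor than Dixon's 95% limit allows, which chance alone gives in about 1 group in 20. The test and the gaps are on the scale of log2(value + 1), while the levels given are normalized counts. CITED1 in virgin vehicle luminal cells of adult ACI rats had 489 in replicate 1 and 8465 to 11642 normalized counts in the others (gap of 0.899 of the range). In parous vehicle luminal cells replicate 1 had 9078 against 2601 to 2758 (gap of 0.953), and in parous vehicle basal cells replicate 1 had 78.2 against 178 to 188 (gap of 0.94). FOXA1 in luminal cells of TGFBRi-treated young SD rats had 121 in replicate 3 and 528 to 692 in the others (gap of 0.845).

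The TGFBRi effect in mature luminal-like cells differed between experiments by an interaction test in edgeR. The log2 difference, whole gland minus sorted SD, was 1.43 for FOXA1, 1.61 for XBP1 and -1.56 for GATA3, and whole gland minus sorted ACI it was 1.8 for XBP1 and -0.937 for GATA3.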

How the results depend on the processing

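The counts of members called are given first. DESeq2 called 4 (2 in the main fit) between luminal and basal cells of NMU rats, 1 (0) for TGFBRi in tumor-free rats with E2, 1 (2) in ACI luminal progenitor-like, 2 (4) in ACI basal-like and 2 (1) in whole-gland basal-like cells. A fit of the compared groups alone called 3 (0) in young ACI luminal cells at day 0, 0 (1) in adult virgin basal cells and 0 (1) for parity in TGFBRi basal cells, and edgeR called 0 (1) in adult virgin basal cells. Adding the unnamed basal-sort cluster to ACI basal-like cells left 3 of 4 calls. UMI totals called 1 (0) in SD luminal progenitor-like and 2 (1) in whole-gland basal-like cells. Without clusters of 1 arm, an alternative added after seeing the data, 2 (4) were called in ACI basal-like, 1 (0) in SD luminal progenitor-like and 1 (2) in SD basal-like cells, and without the 6% of cells with the most UMIs 3 (1) in whole-gland luminal progenitor-like cells. The cause was not tested.

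Leaving out 1 rat moved the counts to 0 to 3 in the NMU lineage fit (0 without luminal rat 2 or 3), 2 to 3 in young SD and 3 to 4 in adult virgin lineage fits, 0 to 2 for TGFBRi in virgin basal cells, 1 to 2 for parity in TGFBRi basal cells and 0 to 2 for its interaction (2 without virgin TGFBRi rat 1 in these 3). They were 1 to 4 for E2 in vehicle rats (1 without no-E2 rat 1 or 3 or E2 rat 1 or 2) and 0 to 2 in TGFBRi rats (0 without no-E2 rat 1 or 3 or E2 replicate 5). In single cells they were 1 to 3, 1 to 2 and 3 to 4 in ACI mature luminal-like, luminal progenitor-like and basal-like cells, 2 to 3, 0 to 1 and 0 to 4 in SD (0 in basal-like cells without vehicle rat 1 or 3, 4 without TGFBRi replicate 5), 3 to 4, 0 to 1 and 1 to 2 in whole glands, and 2 to 3 for sorted ACI against whole glands.

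No called value of a member reversed under the alternatives run. Of single values under other settings, 1200 were unchanged, that is, called in both fits or not called in either. A further 36 moved, meaning a change of sign without a call or no adjusted p, while 29 calls were gained and 18 were lost. With 1 rat left out these numbers were 1893, 138, 19 and 60. The unchanged values include those never called, so they are not counts of calls kept. The rat as a replicate block, a pairing by animal, added GATA3 in young ACI rats (0.47, adjusted p = 0.034, with 5472 genes called in place of 3241) and changed no other call of a member. Counts of genes called differed by over 1.5 times with DESeq2 in 27 of 36 bulk comparisons, with a fit of the compared groups alone in 14, edgeR in 13, a pseudocount of 5 in 5 and no filter in 3. For TGFBRi at day 0 in young ACI luminal cells 153 genes became 556 with DESeq2, 3 with edgeR, 254 with a pseudocount of 5 and 1669 with these groups alone. For E2 in vehicle rats 201 became 627 with DESeq2 and 397 with 4 parts of 1 rat as separate samples, and in TGFBRi rats 623 became 1158, 1567 and, with edgeR, 392. In adult basal cells 1173 (TGFBRi, virgin) and 1631 (parity, TGFBRi) became 136 and 399 with these groups alone. In single cells ACI luminal progenitor-like cells went from 3074 to 1972 with DESeq2, and whole-gland basal-like cells from 6399 to 2546 without clusters of 1 arm.

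In simulated data limma recovered 1% of genes changed by 1 and 33% of those changed by 2 on the log2 scale in young ACI luminal cells at day 0 (14736 genes), and 7% and 57% for E2 in vehicle rats (13411 genes). For SD mature luminal-like cells edgeR recovered 64% and 98% (12759 genes), with 17 false calls, against 1 and 2 in the bulk comparisons. Most changes of 1 on the log2 scale would thus have been missed in these bulk comparisons.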

Other observations

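The members were also read in bulk CD45+ leukocytes, which enter no comparison above. Levels are CPM of recovered reads and are listed for each experiment, not compared between them. Medians of single experiments ran from 47.97 to 133 CPM for GATA3, which T cells use, and from 189 to 320 CPM for XBP1, which plasma cells use. The median was at most 10.8 CPM for FOXA1 and 17.7 CPM for TBX3. CITED1 had medians of 1.04 CPM in the E2 experiment and 110 CPM in young SD rats, where single samples ran from 30.5 to 385 CPM.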
